A study of Mus musculus with 15 samples.

Results

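The genes described here encode the coat of the mouse egg and the egg's side of fertilisation. They were the 9 genes of a list of zona pellucida, oocyte secreted protein, ovastacin and sperm-binding surface genes (Zp1, Zp2, Zp3, Oosp1, Oosp2, Oosp3, Astl, Cd9 and Izumo1r), found by symbol among the 53700 genes counted in each library. The oocytes were in the GV, or germinal vesicle, state, grown to full size but still arrested in meiosis, and 15 of them made up each sequenced library. The Padi6 line was on the FVB/N strain background, with 3 heterozygous (het) and 3 knockout (KO) replicates. The Tle6 line was on the C57BL/6J strain background, with 2 het and 4 KO replicates. Het replicates 1 and 2 and KO replicate 4 of the Tle6 line were each sequenced as technical libraries A and B, which were added together. Every control was a heterozygote, so that the controls of each line carried 1 mutant allele of the gene that its knockouts lacked altogether. The sources used here give neither the age of the females nor the deleted part of each gene nor the animals behind each replicate, so a p-value here covers only the variation among the samples sequenced, which may be technical. PADI6 and TLE6 are both known as oocyte proteins needed for the cytoplasmic lattices, and the question addressed here is whether transcripts of the egg coat and egg surface differed in oocytes without them.

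The zona pellucida is a glycoprotein matrix that the growing oocyte secretes around itself. In the mouse it is built of ZP1, ZP2 and ZP3, where ZP2 and ZP3 form filaments and ZP1 cross-links them. Sperm bind the zona through ZP2, and after fusion the protease ovastacin, the product of Astl, is released from the cortical granules and cleaves ZP2. On the egg membrane, JUNO, the GPI-anchored product of Izumo1r, is the receptor for the sperm protein IZUMO1, and the tetraspanin CD9 is needed for the membranes to fuse. Oosp1, Oosp2 and Oosp3 encode small secreted proteins of the oocyte with a domain related to that of PLAC1.

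Start-site sequences are shown for 4 of the genes, because Astl and Oosp1 were the 2 that differed between the lines in both genotypes and Zp3 and Izumo1r varied together within groups. RefSeq promoter windows on GRCm38.p6, the 250 bases before a gene's start, were matched for 6 of the 9 genes, in 7 windows since Astl has 2, while Zp1, Zp2 and Oosp3 were not matched. All are written 5′ to 3′ on the gene's strand. Capitals mark CANNTG, the E-box core, which reads as CANNTG on both strands and is the motif bound by basic helix-loop-helix factors such as FIGLA, a known regulator of the zona genes.
Zp3, chr5:135979855-135980104, plus strand: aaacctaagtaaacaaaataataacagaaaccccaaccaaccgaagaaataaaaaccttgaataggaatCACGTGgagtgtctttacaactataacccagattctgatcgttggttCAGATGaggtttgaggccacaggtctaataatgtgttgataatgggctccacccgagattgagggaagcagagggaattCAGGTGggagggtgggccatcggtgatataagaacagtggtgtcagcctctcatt
Astl, chr2:127341386-127341635, plus strand: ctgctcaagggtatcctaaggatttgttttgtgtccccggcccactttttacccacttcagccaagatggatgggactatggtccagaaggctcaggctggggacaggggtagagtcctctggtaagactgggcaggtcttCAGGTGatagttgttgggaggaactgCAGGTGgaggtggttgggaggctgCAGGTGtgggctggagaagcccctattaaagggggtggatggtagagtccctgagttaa
Oosp1, chr19:11691052-11691301, minus strand: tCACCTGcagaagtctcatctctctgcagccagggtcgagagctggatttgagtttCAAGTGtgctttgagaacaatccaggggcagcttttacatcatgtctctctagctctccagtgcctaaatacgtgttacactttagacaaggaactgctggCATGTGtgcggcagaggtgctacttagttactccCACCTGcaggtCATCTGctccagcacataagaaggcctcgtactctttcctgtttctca
Izumo1r, chr9:14903768-14904017, minus strand: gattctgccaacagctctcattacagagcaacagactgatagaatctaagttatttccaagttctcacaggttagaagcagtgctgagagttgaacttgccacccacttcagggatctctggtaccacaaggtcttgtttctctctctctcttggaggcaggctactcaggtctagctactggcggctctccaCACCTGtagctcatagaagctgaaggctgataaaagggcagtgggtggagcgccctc
CANNTG was present in 6 of the 7 windows of these genes (85.7%) and in 66.2% of all 32851 windows of the same length. It began at -55 from the start in Zp3, at -59 in Astl, at -57 in Izumo1r, at -60 in Oosp2, and at -59 and -48 in Oosp1. Further sites began at -181 and -134 in Zp3, at -109 and -83 in Astl, and at -249, -194 and -93 in Oosp1. A CANNTG that began between -65 and -45 was found in 5 of the 7 windows (71.4%) and in 9.37% of all windows, where the limits of that interval were chosen after the positions had been seen. Cd9 had CANNTG at -73, -38 and -25, and the other Astl window had none. The TATA box spelling TATAAA was in none of the 7 windows on either strand and in 12.4% of all windows. Only that spelling was searched, and near variants, such as tataag close to the end of the Zp3 window, were not counted. The homeobox core TAATTA was in none of the 7 and in 4.84% of all, and its variant spelled TAATTG was in none of the 7 and in 7.17% of all. These matches describe letters in the sequence, and binding was not measured.

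The libraries held 30100177 to 74947533 counts in genes. Oocyte markers (9 of 10 found, among them Gdf9, Bmp15 and Mos) summed to 9930 to 13710 CPM, counts scaled to a library's total, in every library, whereas theca and stroma markers summed to at most 5.99 CPM and blood markers to at most 2.35. Granulosa and cumulus markers (19 of 19 found) summed to 690 to 785 CPM in Padi6 het, 646 to 741 in Padi6 KO, 404 to 672 in Tle6 het and 392 to 714 in Tle6 KO. Serpine2 alone gave 288 to 661 CPM of that sum, Nr5a2 33.3 to 74.4, Cyp19a1 21.0 to 60.2, Cyp11a1 up to 23.4 and Has2 up to 11.7. Has2 was the 1 granulosa marker of 15 tested that was called in Padi6 KO, higher by 2.19 ± 0.31 on the log2 scale (edgeR's quasi-likelihood adjusted p 0.0109), and none of 16 was called in the Tle6 line. The defining granulosa genes Fshr, Amhr2 and Inha stayed at or below 1.08, 1.06 and 2.47 CPM, and Amh, Ptx3 and Tnfaip6 were at 0 in every Tle6 het library. Normalised CPM, the unit of the levels below, are a replicate's CPM after TMM scaling over all 12 replicates. Padi6 itself stood at 1590 to 1750 normalised CPM in Padi6 het and 18.7 to 24.8 in Padi6 KO (log2 fold change -6.22). Tle6 stood at 457 and 429 in Tle6 het and 61.1 to 97.0 in Tle6 KO (log2 fold change -2.40), so that the knockouts of each line had less of the targeted transcript than their hets.

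Of the replicates with technical libraries, 1 stood apart for these genes. In het replicate 2 of the Tle6 line, library A had more of all 9 transcripts than library B of the same replicate. Zp1 stood at 484 CPM in library A and 158 in library B, a ratio of 3.06 (95% counting interval 2.99 to 3.13). The ratio was 3.31 for Zp2, 2.78 for Zp3 and 3.56 for Oosp1, and it was smaller for Oosp2 (1.92), Izumo1r (1.91), Cd9 (1.62), Astl (1.43) and Oosp3 (1.32). In that replicate 53.9% of the 7087 genes at 10 CPM or more differed over 1.5-fold between the libraries, and 7 of the 9 genes did. In the other 2 replicates with technical libraries the ratios of these genes were 0.912 to 1.22 and 0.923 to 1.12, and at most 0.0141% of genes passed 1.5-fold. Intervals cover counting error only, since reads are not independent molecules. For Zp2 both libraries of het replicate 2 lay outside the other Tle6 libraries (1121 to 1657 CPM), at 2691 in A and 814 in B. Which of the 2 libraries departs was not tested. Log2 fold changes of the 9 genes that rest on Tle6 het replicate 2 are given with both libraries and with library A alone. Normalised CPM, levels per length and tests of zona ratios use both libraries added, unless a library is named. Calls with library B alone are given with the alternatives.

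**Figure D1:**
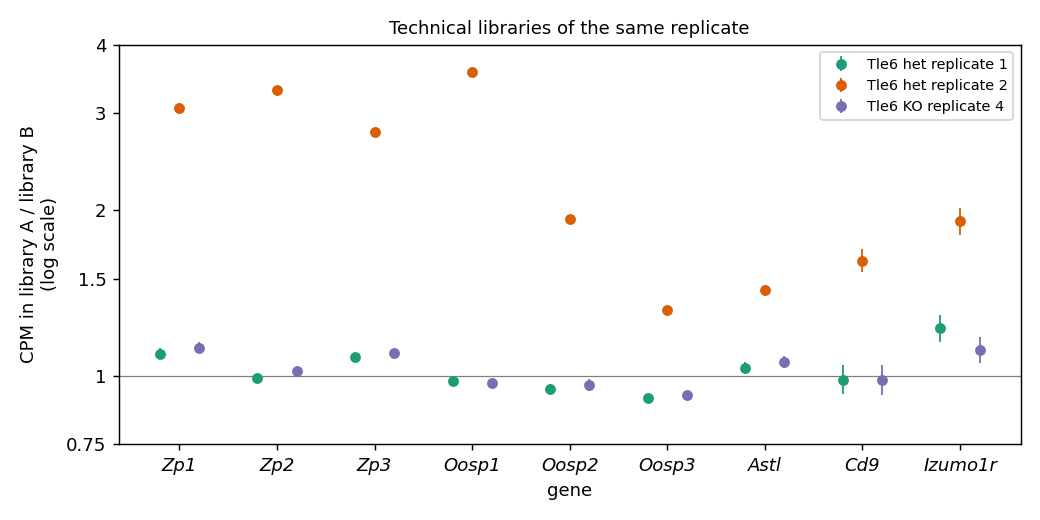
Ratio of CPM in technical library A to library B (log scale) for each of the 9 genes in the 3 Tle6 replicates that had both, with 95% counting intervals as bars. Het replicate 1 and KO replicate 4 lie near 1 for every gene, whereas het replicate 2 lies at 1.32 to 3.56.

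As a group, these transcripts were abundant. Together they took 0.587 to 1.14% of all gene counts in a biological replicate, with its technical libraries added. The 3 zona genes took 0.275 to 0.497%. Oosp1 ranked 19th of 53700 genes by mean CPM, Zp2 48th, Zp3 59th and Oosp3 160th, followed by Oosp2 (337th), Astl (341st) and Zp1 (416th). The 2 genes of the egg membrane were far lower in that order, Cd9 at 2725th and Izumo1r at 3221st. To compare genes with each other, counts were divided by the length of the gene's exons and scaled to TPM over protein-coding genes, which gives a level per length.

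Per length, Oosp1 was the highest of the 9 in every group, at 13351 TPM ± 1939 (SD, n = 3) in Padi6 het and 7720 ± 1835 (n = 4) in Tle6 KO. Zp3 followed at 4796 ± 236 TPM in Padi6 het and Oosp3 at 3688 ± 349, and these levels did not overlap between replicates. In Tle6 KO Zp3 (3726 ± 452 TPM) and Oosp3 (3305 ± 160) overlapped. In Tle6 het Oosp3 lay above Zp3 in both replicates with technical libraries added. In library A alone of het replicate 2 the order was the other way. There Zp3 had 69629 counts over 1323 bases and Oosp3 39720 over 823. Oosp2 and Zp2 stood next to each other with overlapping replicates in every group, at 2819 ± 152 and 2818 ± 254 TPM in Padi6 het. Zp1 was the least abundant zona transcript per length, at 977 ± 116 TPM in Padi6 het, where Astl stood at 1065 ± 101 and overlapped it. In the Tle6 line Astl lay below Zp1 with no overlap, at 374 ± 55.0 against 636 ± 90.5 TPM in KO. Cd9 (165 ± 38.1 TPM in Padi6 het) and Izumo1r (123 ± 18.0) were lowest, and overlapped in every group except Padi6 KO.

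**Figure D2:**
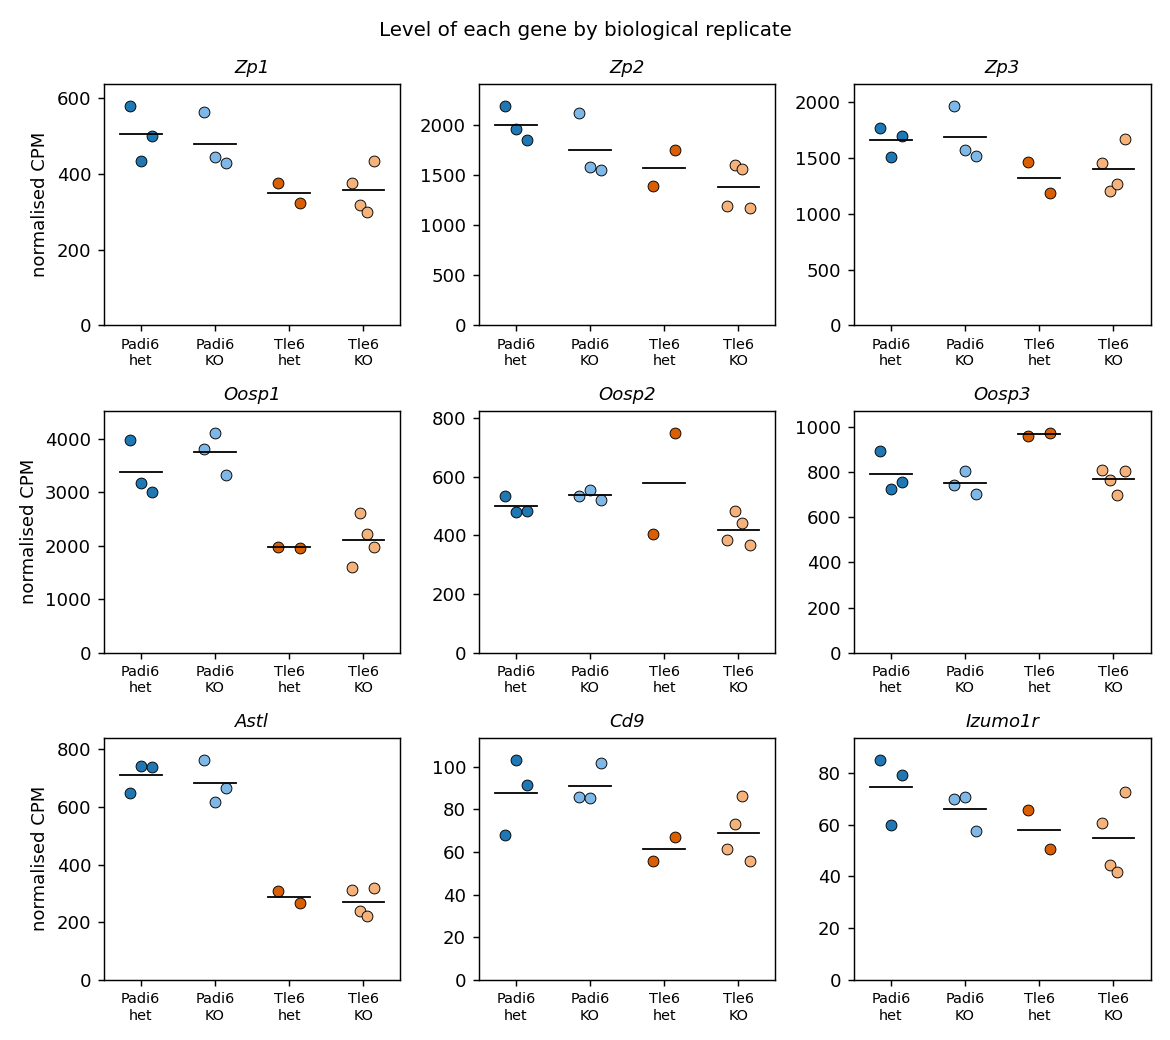
Normalised CPM of the 9 genes in each biological replicate of the 4 groups (points) with the group mean (bar), on axes that start at 0. Astl and Oosp1 sit lower in every Tle6 replicate than in every Padi6 replicate, and het and KO replicates of a line overlap for every gene except Oosp3 in the Tle6 line.

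The effect of losing PADI6 was taken gene by gene. None of the 9 transcripts passed the test in Padi6 KO against Padi6 het (edgeR's quasi-likelihood test, Benjamini-Hochberg adjusted p 0.462 to 0.949), and log2 fold changes ran from -0.20 to 0.15 with 95% intervals that stayed between -0.49 and 0.43. Over all 18228 genes tested, 440 (2.41%) passed an adjusted p of 0.05 and 3399 an unadjusted p of 0.05, and of the 9 genes none passed either. The median log2 fold change was -0.06 for the 9 genes and -0.01 for all genes tested. In libraries of pooled oocytes, fewer cells with a transcript and less of it per cell cannot be told apart.

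Zp1, the cross-linker, stood at 581, 436 and 500 normalised CPM in the Padi6 hets and at 565, 444 and 429 in the KOs. Zp2, the sperm-binding component, stood at 2193, 1961 and 1848 in the hets and 2115, 1584 and 1551 in the KOs. Zp3 stood at 1764, 1508 and 1698 in the hets and 1968, 1572 and 1517.5 in the KOs. For each of the 3 zona genes replicate 1 was the highest KO, and the ranges of hets and KOs overlapped. The log2 fold changes were -0.08 ± 0.13 (SE) for Zp1, -0.20 ± 0.13 for Zp2 and 0.02 ± 0.11 for Zp3.

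Oosp1, the most abundant of the secreted protein genes, stood at 3975, 3172 and 3008.5 normalised CPM in the Padi6 hets and 3805, 4115 and 3333 in the KOs. Oosp2 stood at 533, 479 and 483 in the hets and 534, 556 and 521 in the KOs. Oosp3 stood at 892, 728 and 757 in the hets and 744, 806 and 704 in the KOs. All 3 overlapped between genotypes, and their log2 fold changes were 0.15 ± 0.13, 0.11 ± 0.09 and -0.08 ± 0.10. These genes are relatives of each other, and reads shared between them would have been set apart in the counting, so their counts are less certain than those of single-copy genes.

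Astl, the ovastacin gene, stood at 649.7, 741 and 739 normalised CPM in the Padi6 hets and 763, 616 and 665 in the KOs, a log2 fold change of -0.06 ± 0.11. Cd9 stood at 68.2, 103 and 91.6 in the hets and 85.8, 85.3 and 101.7 in the KOs (log2 fold change 0.05 ± 0.16). Izumo1r stood at 85.1, 60.0 and 79.3 in the hets and 69.9, 70.8 and 57.6 in the KOs (-0.18 ± 0.14). Hets and KOs of these 3 genes overlapped as well, so that none of the 9 separated, against 23.2% of all genes tested whose replicate ranges did not overlap.

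The same comparison in the Tle6 line had 2 hets and 4 KOs and a wider spread between replicates, with a biological coefficient of variation of 0.361 against 0.203 in the Padi6 line. None of the 9 transcripts passed the test (edgeR's quasi-likelihood test, adjusted p 0.375 to 0.959), where 329 of 20276 genes (1.62%) did. Of the 9 none passed an unadjusted p of 0.05 either, where 3852 genes did. The log2 fold changes ran from -0.42 to 0.21 and their 95% intervals reached from -0.99 to 0.72, so that differences of nearly 2-fold for single genes lay within them. The median log2 fold change was -0.03 for the 9 genes and 0.06 for all genes tested.

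Zp1 stood at 377 and 323 normalised CPM in the Tle6 hets and 377, 317, 301 and 434 in the KOs. Zp2 stood at 1392.5 and 1745 in the hets and 1193, 1601, 1557 and 1172 in the KOs. Zp3 stood at 1460.0 and 1184 in the hets and 1453, 1199.8, 1270 and 1665 in the KOs. KO replicates 1 and 4 were the highest KOs for Zp1 and Zp3 and the lowest for Zp2, and hets and KOs overlapped. Log2 fold changes were 0.07 ± 0.20 for Zp1, -0.14 ± 0.21 for Zp2 and 0.12 ± 0.20 for Zp3. With library A alone for het replicate 2 they were -0.25, -0.55 and -0.17, all short of the threshold.

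Oosp1 stood at 1986 and 1955 normalised CPM in the Tle6 hets and 1599, 2619, 2230 and 1984 in the KOs, a log2 fold change of 0.14 ± 0.22 (-0.25 with library A alone). Oosp2 stood at 404 and 749.7 in the hets and 385, 482, 443 and 366 in the KOs. Its hets lay furthest apart of all 9 genes, with het replicate 2 above every KO and het replicate 1 among them. The Oosp2 log2 fold change was -0.42 ± 0.25, with an adjusted p of 0.403 (-0.64 with library A alone). Oosp3 stood at 960.5 and 975 in the hets and 808, 767, 697 and 804 in the KOs. It was the 1 gene of the 9 whose hets and KOs did not overlap, where 29.2% of all genes tested did not, and its log2 fold change of -0.29 ± 0.16 did not pass the test (adjusted p 0.375, -0.32 with library A alone).

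Astl stood at 309 and 265 normalised CPM in the Tle6 hets and 310.2, 237, 222 and 317 in the KOs (log2 fold change -0.04 ± 0.21). Cd9 stood at 55.7 and 67.0 in the hets and 61.3, 73.1, 86.1 and 55.7 in the KOs (0.21 ± 0.22). Izumo1r stood at 65.6 and 50.6 in the hets and 60.9, 44.5, 41.8 and 72.9 in the KOs (-0.03 ± 0.26). With library A alone for het replicate 2 the log2 fold changes were -0.10 for Astl, 0.09 for Cd9 and -0.20 for Izumo1r. For Astl and Izumo1r, as for Zp1 and Zp3, KO replicates 1 and 4 were the high ones, and for Cd9 they were the low ones.

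Whether the 2 knockouts acted differently on these genes was tested as the difference of the Tle6 and Padi6 log2 fold changes over all 12 replicates. None of the 9 genes passed (edgeR's quasi-likelihood test, adjusted p 0.26 to 0.992), where 924 of 21392 genes (4.32%) did. Oosp2 had the widest difference, -0.57 ± 0.27 on the log2 scale (95% interval -1.16 to 0.02). That value rested on Tle6 het replicate 2 above all. Without Tle6 het replicate 1 it was -0.96 (adjusted p 0.0243), and without het replicate 2 it was -0.06. For the other 8 genes the difference lay between -0.25 and 0.12 on the log2 scale. With library A alone for Tle6 het replicate 2 the Oosp2 difference was -0.75, and those of the other 8 genes lay between -0.40 and 0.04.

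**Figure D3:**
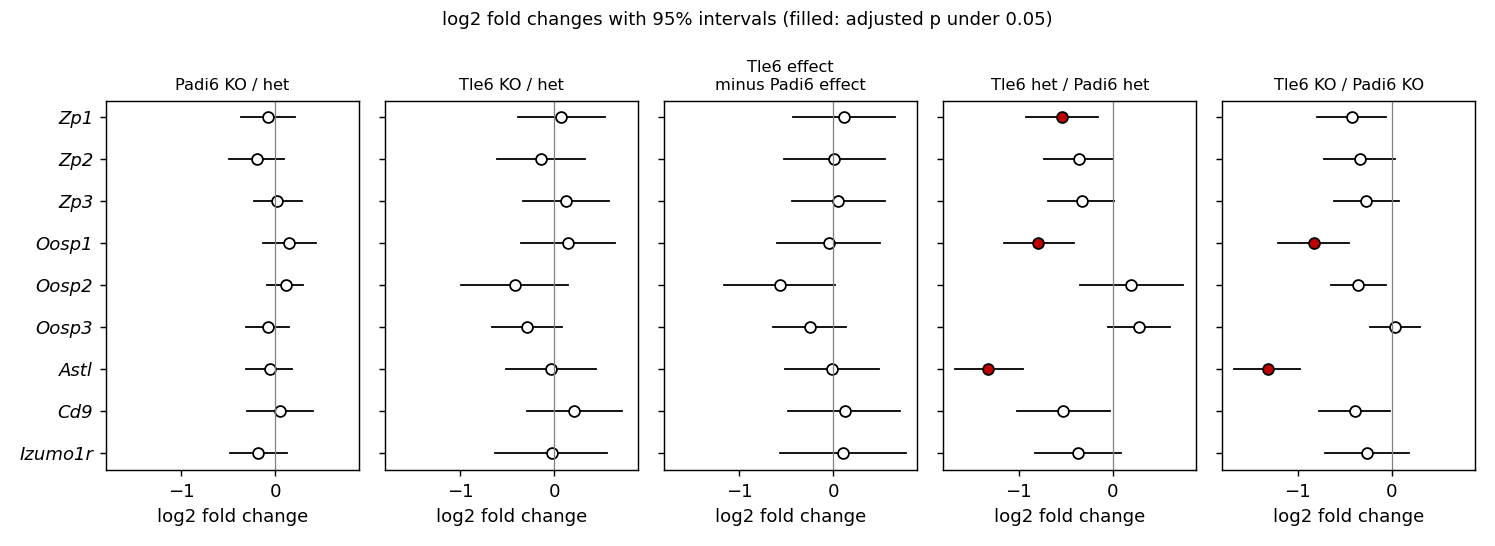
Log2 fold changes of the 9 genes (points) with 95% intervals (bars) in 5 comparisons, namely KO with het in each line, the difference of those effects, and the Tle6 with the Padi6 line in hets and in KOs, filled where the adjusted p was under 0.05. Intervals cross 0 for every gene within the lines and for the difference, Zp1 is filled between hets, and Astl and Oosp1 are filled and left of 0 in both comparisons between lines.

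The lines themselves differed. Astl and Oosp1 were lower in the Tle6 line than in the Padi6 line in both genotypes, Astl by 2.49-fold in hets and 2.50-fold in KOs and Oosp1 by 1.73-fold and 1.78-fold. Strain, line and the preparation of the libraries go together here and cannot be told apart, and the comparison of KOs was added after that of hets had been seen. Of 19220 genes tested between hets, 5415 (28.2%) passed an adjusted p of 0.05, of which 13.0% of genes tested were lower in the Tle6 line. Of 19240 tested between KOs, 6463 (33.6%) passed, 17.0% of genes tested being lower. A count of 3 of the 9 genes in hets and 2 in KOs stands beside those shares.

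Astl ran from 649.7 to 741 normalised CPM in the Padi6 hets and stood at 309 and 265 in the Tle6 hets, with every Padi6 het at more than 2 times the level of either Tle6 het. Its log2 fold change between hets was -1.32 ± 0.16 (2.49-fold lower, edgeR's quasi-likelihood adjusted p = 0.00115, in 2 of 2 Tle6 hets). Between KOs, at 616 to 763 against 222 to 317 normalised CPM, it was -1.32 ± 0.16 (2.50-fold lower, adjusted p = 2.17e-04, in 4 of 4). With library A alone for Tle6 het replicate 2 the value between hets was -1.26, with an adjusted p of 0.00811. Over the other settings and left-out replicates it lay between -1.61 and -1.21 in hets and between -1.42 and -1.23 in KOs, and passed in each.

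Oosp1 ran from 3008.5 to 3975 normalised CPM in the Padi6 hets and stood at 1986 and 1955 in the Tle6 hets. Its log2 fold change was -0.79 ± 0.16 between hets (1.73-fold lower, edgeR's quasi-likelihood adjusted p = 0.0100) and -0.83 ± 0.17 between KOs (1.78-fold lower, adjusted p = 0.00482), where 1599 to 2619 stood against 3333 to 4115. The groups overlapped in neither. The value between hets with library A alone for Tle6 het replicate 2 was -0.40 and did not pass (adjusted p = 0.339). With any 1 replicate left out, het replicate 2 included, it was -0.87 to -0.68 and passed (adjusted p 0.0147 to 0.0319). The comparison of KOs does not use that library.

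Zp1 was lower in Tle6 than in Padi6 hets by 1.45-fold (log2 fold change -0.54 ± 0.17, edgeR's quasi-likelihood adjusted p = 0.0445), at 377 and 323 against 436 to 581 normalised CPM. Between KOs it was -0.42 ± 0.16, with overlapping replicates and an adjusted p of 0.0720. The Zp1 call between hets was lost with library A alone (-0.22, adjusted p 0.538) and with library B alone. It was also lost with RLE scaling, with a spread shared by the 4 groups and with any Padi6 het left out. Zp2 and Zp3 were -0.36 ± 0.16 and -0.33 ± 0.15 between hets and -0.34 ± 0.17 and -0.27 ± 0.15 between KOs, none of which passed. With library A alone the het values were 0.04 for Zp2 and -0.05 for Zp3, whereas Zp2 passed with library B alone. With library totals both Zp2 and Zp3 passed between hets.

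Cd9 and Izumo1r, the genes of the egg membrane, had log2 differences of -0.53 ± 0.21 and -0.37 ± 0.20 between hets and -0.39 ± 0.17 and -0.26 ± 0.20 between KOs, short of the threshold. Oosp2 went from 0.20 ± 0.24 between hets to -0.36 ± 0.13 between KOs, and Oosp3 from 0.28 ± 0.14 to 0.04 ± 0.12, also short of it. With library A alone the values between hets were -0.41 for Cd9, -0.22 for Izumo1r, 0.42 for Oosp2 and 0.30 for Oosp3. Replicate ranges did not overlap between lines for 7 of the 9 genes in hets (56.3% of all genes tested), all but Oosp2 and Izumo1r. They did not overlap for 2 with library A alone, Oosp3 and Astl (45.6% of all genes tested). In KOs they did not overlap for 3, Oosp1, Oosp2 and Astl (42.6% of all genes tested). Between hets the share of genes called fell from 28.2% to 12.2% with library A alone, and Astl was then the 1 gene of the 9 that passed.

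The proportions of the 3 zona transcripts were compared as ratios of counts within each replicate, a measure added after the levels had been seen. Zp2:Zp3 was 1.24, 1.30 and 1.09 in the Padi6 hets (1.21 ± 0.110, SD, n = 3) and 1.07, 1.01 and 1.02 in the KOs (1.03 ± 0.0354, n = 3). Zp1:Zp3 was 0.329, 0.289 and 0.295 in the Padi6 hets and 0.287, 0.283 and 0.283 in the KOs. Both ratios were lower in 3 of 3 KOs than in any het, with a two-sided exact permutation p of 0.1 each, the smallest that 3 against 3 allows, and 0.3 after Benjamini-Hochberg adjustment over 6 ratios. Zp1:Zp2 overlapped between these groups (exact permutation p = 0.2).

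In the Tle6 line Zp2:Zp3 was 0.954 and 1.47 in the hets and 0.821, 1.33, 1.23 and 0.704 in the KOs. The hets and KOs overlapped (two-sided exact permutation p = 0.467, where 4 against 2 cannot go below 0.0667). KO replicates 1 and 4 had less Zp2 than Zp3 and KO replicates 2 and 3 more. Zp1:Zp3 moved far less, from 0.258 and 0.272 in the hets to 0.237 to 0.265 in the KOs (exact permutation p = 0.533). In het replicate 2 the Zp2:Zp3 ratio was 1.57 in library A and 1.32 in library B.

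**Figure D4:**
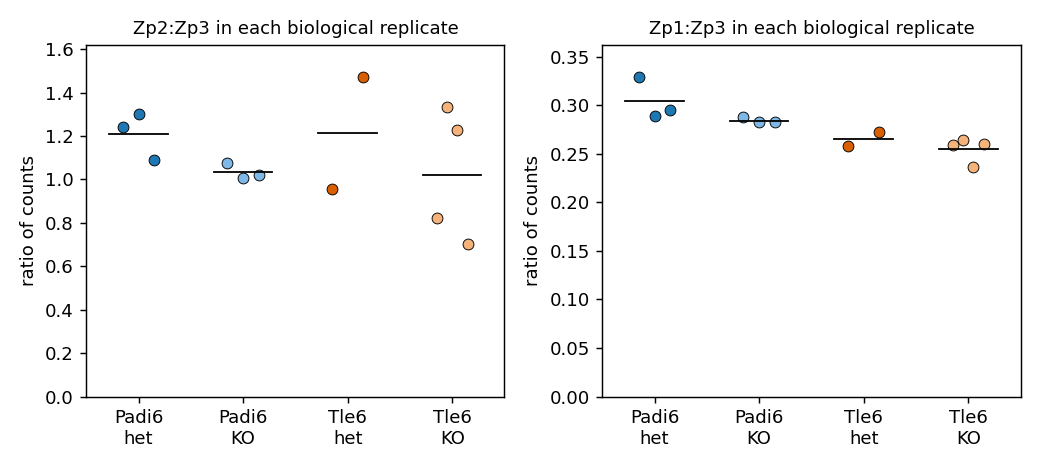
Ratios of counts Zp2:Zp3 and Zp1:Zp3 in each biological replicate of the 4 groups (points), on axes that start at 0. Zp2:Zp3 runs from 0.704 to 1.47 in the Tle6 line and from 1.01 to 1.30 in the Padi6 line, and Zp1:Zp3 stays between 0.237 and 0.329 throughout.

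Within groups the genes did not vary as 1 block. Over the deviations of the 12 replicates from their group means, which share library size and scaling, Zp1 and Zp3 had a Pearson r of 0.95, Zp1 and Izumo1r 0.89, and Zp3 and Izumo1r 0.86. Cd9 ran against them, with an r of -0.88 with Zp1 and -0.92 with Izumo1r. Zp2 stood apart from the other zona genes, at -0.15 with Zp1 and -0.24 with Zp3, and was nearer to Oosp2 (0.65) and Oosp1 (0.63). Oosp3, the lowest of the 9 in GC content, had an r of 0.61 with Zp1, 0.70 with Izumo1r and 0.40 with Zp3. It had one of -0.88 with Cd9, 0.22 with Oosp1, 0.06 with Oosp2 and -0.11 with Zp2. Without library B of Tle6 het replicate 2 the r was 0.96 for Zp1 and Zp3, 0.88 for Zp2 and Oosp2, and 0.24 for Zp1 and Zp2. Zp2 and Zp3 then had an r of 0.14, Cd9 and Zp1 one of -0.60 and Cd9 and Izumo1r one of -0.87. The GC content of the longest transcript was 56.7% for Izumo1r, 56.1% for Zp3, 55.1% for Zp1 and 53.3% for Astl, and 45.9% for Cd9, 45.4% for Zp2, 42.1% for Oosp2, 42.0% for Oosp1 and 38.7% for Oosp3. The granulosa marker sum also differed between Tle6 KO replicates 1 and 4, at 392 to 406 CPM, and replicates 2 and 3, at 714 and 686. Most of that sum is Serpine2, at 288 to 661 CPM over all libraries. Amhr2 was divided in the same way, at 0.110 to 0.198 CPM against 0.674 and 1.06. Fshr (0.154 to 0.534 against 0.624 and 0.110) and Inha (0.505 to 0.897 against 0.894 and 0.880) were not. The part of GC content or of other cells in these patterns was not tested.

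**Figure D5:**
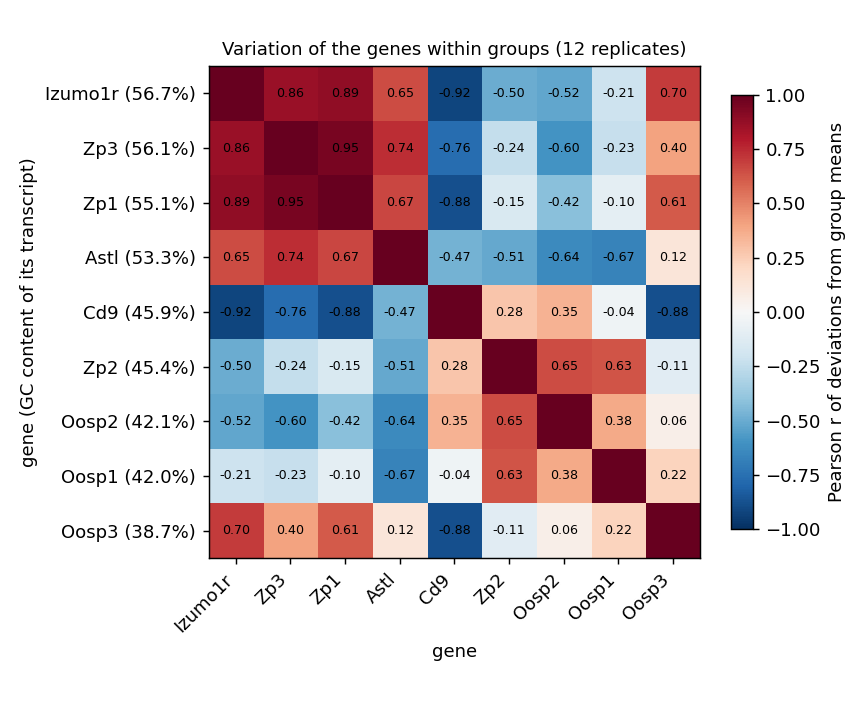
Pearson r between the 9 genes over the deviations of 12 replicates from their group means (colour and printed value), with the GC content of each gene's transcript on the vertical axis. Zp1, Zp3, Izumo1r and Astl have positive values with each other, and Cd9 has negative values with Zp1 and Izumo1r. Oosp3, the lowest in GC content, has positive values with Zp1, Zp3 and Izumo1r and a negative value with Cd9.

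Among 7399 other genes at 10 CPM or more, those whose log2 levels followed each gene most closely over the 12 replicates were found by Pearson r. For Astl they were Sspn (0.991) and Eef1g (0.988), and for Oosp1 Ing3 (0.977) and Zfp598 (0.957). Zp1 was followed by Ap1m1 (0.968), Zp2 by Mast4 (0.969) and Zp3 by Ddx49 (0.958). Oosp2 was followed by Socs6 (0.966), Oosp3 by Ankrd49 (0.965), Izumo1r by Nprl2 (0.965) and Cd9 by Rbpj (0.931). The replicates share their line, so that a gene that differs between lines raises these values. Without library B the nearest gene was still Sspn for Astl, Socs6 for Oosp2 and Ankrd49 for Oosp3, while for the other 6 it was another gene.

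The genes around these 9 in the same pathways were counted in lists. Of 11 genes for transcriptional control of the zona and egg coat tested in the Padi6 line, none passed the test. Figla, the regulator named above, had a log2 fold change of 0.17 ± 0.12 there and 0.29 ± 0.24 in the Tle6 line. In the Tle6 line 1 of 11 was higher in KO, Gtf2a1l, a germ cell subunit of general factor TFIIA, at 63.4 and 70.2 normalised CPM in hets and 110.9 to 152 in KOs (log2 fold change 1.01 ± 0.20, edgeR's quasi-likelihood adjusted p = 0.0438). With library A alone it was 0.98, with an adjusted p of 0.0957. None of the 18 genes for secretion, processing and glycosylation of the zona passed in the Padi6 line, and none of 19 in the Tle6 line.

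Among genes of cortical granules and their release, 1 of 22 was lower in Padi6 KO, Padi6 itself, and none of 23 passed in the Tle6 line. Of the tetraspanins and integrins, 1 of 14 was higher in Padi6 KO, the integrin gene Itga5, at 0.965 to 1.28 normalised CPM in hets and 2.56 to 3.04 in KOs (log2 fold change 1.30 ± 0.24, adjusted p 0.0253). In the Tle6 line 1 of 15 was higher, the integrin gene Itgb3, at 11.9 and 14.3 in hets and 27.3 to 42.0 in KOs (1.43 ± 0.25, adjusted p 0.0342, and 0.0574 with library A alone). Cd81, the other tetraspanin with a known part in gamete fusion, had group means of 0.801 to 2.59 normalised CPM and passed in neither line.

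JUNO is held by a GPI anchor, and the genes that make and attach such anchors were measured in both lines. None of 26 passed in the Padi6 line and 1 of 26 in the Tle6 line, Gpaa1, a subunit of the transamidase that attaches the anchor. It stood at 35.5 and 15.1 normalised CPM in the Tle6 hets and 1.41 to 4.28 in the KOs (log2 fold change -3.19 ± 0.44, edgeR's quasi-likelihood adjusted p = 0.0121). With library A alone it was -2.84, with an adjusted p of 0.147. The Padi6 line stood at 3.09 to 8.19 normalised CPM. Het replicate 1 was high in both of its libraries (32.3 and 29.5 CPM), whereas het replicate 2 was high only in library B (17.9 CPM, against 3.19 in library A).

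None of the 18 genes of egg activation, calcium and zinc passed in either line, nor did any of the 9 genes for secreted and other oocyte factors. Of the genes for the sperm side of fertilisation, 1 of 14 was higher in Padi6 KO and none of 13 passed in the Tle6 line. That gene, Spam1, which encodes a sperm hyaluronidase, stood at 8.22 to 11.04 normalised CPM in hets and 17.5 to 19.5 in KOs (log2 fold change 0.89 ± 0.15, adjusted p 0.0191). Medians of the 8 lists lay between -0.15 and 0.17 on the log2 scale in the Padi6 line and between -0.34 and 0.29 in the Tle6 line.

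Between the lines many more of these genes differed, as did genes overall. Of 11 transcriptional control genes tested between hets, 2 were higher and 4 lower in the Tle6 line, and of 10 between KOs 1 was higher and 2 lower, beside 28.2% and 33.6% of all genes called. Between hets 1 was higher and 1 lower with library A alone, beside 12.2% of all genes. Nobox, an oocyte homeobox regulator, was lower in the Tle6 line in both genotypes, with log2 fold changes of -1.03 ± 0.14 in hets (edgeR's quasi-likelihood adjusted p 0.00213) and -0.85 ± 0.13 in KOs (9.03e-04). Its het call was lost with library A alone (-0.76, adjusted p 0.0562). Sohlh2, a basic helix-loop-helix factor of early oocytes, was higher in both, by 1.85 ± 0.26 (1.90 with library A alone) and 1.76 ± 0.17, at 3.89 to 5.90 normalised CPM in Padi6 hets and 15.2 and 20.9 in Tle6 hets. Figla passed in neither, at -0.29 ± 0.20 and -0.21 ± 0.17.

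Of the 26 GPI anchor genes 3 were higher and 3 lower in the Tle6 line in hets, and again 3 and 3 in KOs. Over all genes 28.2% were called in hets and 33.6% in KOs. In hets 1 was higher and 2 lower with library A alone, beside 12.2% of all genes called. Pigt, a further transamidase subunit, was lower by -3.01 ± 0.28 on the log2 scale in hets (-2.43 with library A alone) and -3.03 ± 0.44 in KOs, at 7.55 to 8.61 normalised CPM in Padi6 hets and 0.963 and 1.00 in Tle6 hets. Among tetraspanins and integrins, Itga6 was higher in the Tle6 line, at 1174 and 1198 against 477 to 512 normalised CPM in hets (log2 fold change 1.24 ± 0.13, and 0.98 with library A alone) and by 0.75 ± 0.14 in KOs. In the cortical granule list 6 of 23 were higher and 2 lower in hets, and 4 and 4 in KOs. With library A alone 3 of 22 were higher and 1 lower in hets. The shares of all genes are those given for the GPI anchor genes. Padi6 is on this list, and its difference of 6.63 on the log2 scale between KOs follows from its knockout in the Padi6 line. It was also 1 of the 3 higher between hets with library A alone (0.74, edgeR's quasi-likelihood adjusted p 0.0407). The vesicle fusion gene Vamp3 was higher by 2.27 ± 0.19 on the log2 scale in hets and 1.74 ± 0.18 in KOs. With library A alone its value in hets was 1.78 (adjusted p 0.0392).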

How the data were processed

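Polyadenylated RNA from 15 GV oocytes per library was, per the labels' protocols, made into libraries with a single-cell RNA library kit (QIAseq FX). The authors deposited whole-number counts of reads per gene for 15 libraries, not normalised. The submitters' processing notes name bcl2fastq 2.20.0.422, cutadapt 2.8, STAR 2.7.8a, HTSeq 2.0.2 and the build mm39, without their order or settings. The strand setting was not stated, so overlapping and antisense genes are uncertain. Groups follow the titles and genotype labels, which say heterozygote where the bracketed names say WT. The 92 spike-ins and the summary lines were left out of all totals. Spike-in counts were 40 in Padi6 het replicate 3, 4009 to 13772 in the other Padi6 libraries and 5 to 45 in the Tle6 libraries. The reason for these differences is not known. Reads in no gene were 5.39 to 7.29% of a table's reads, ambiguous ones 3.85 to 4.2% and reads with several alignments 12.09 to 14.51%.

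Symbols and lengths came from GENCODE M21 on GRCm38 by identifier (52147 of 53700 matched), and printed positions are those of the RefSeq promoter table on GRCm38.p6. Technical libraries were added per replicate. The test was edgeR 4.0.16 in R 4.3.3 (filterByExpr, TMM, robust glmQLFit and a two-sided glmQLFTest), and a gene was called at a Benjamini-Hochberg adjusted p under 0.05, adjusted over the whole table. The fit used a single line at a time for KO against het, the difference between lines over all 12 replicates, and hets or KOs of the lines against each other with those samples. Standard errors are the log2 fold change divided by the square root of F, and intervals are at 95%. Levels per length were computed over 21929 protein-coding genes. For likeness, genes at 10 CPM or more were ranked by Pearson r of log2 CPM with a prior count of 2. At these depths replicate spread, rather than counting error, limits precision. The tests were checked on simulated counts. There, 2-fold changes were missed far more often in the Tle6 line and for the difference than in the Padi6 line.

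The 9 genes and the pathway lists were chosen with earlier results of these data known. The naming rule took the 9 genes, Padi6, Tle6, up to 4 called genes per list and comparison by smallest p, and the 2 nearest genes by likeness, and the text names genes from among these. Figla, Cd81, Serpine2 and other marker genes were named outside it, with their values seen. Alternatives were other scalings (RLE, upper quartile, library totals), no low count filter, a minimum mean level of 5 CPM, the tools DESeq2 1.42.0 and limma-voom (limma 3.58.1), a spread shared by the 4 groups, a replicate block, other uses of the technical libraries, longest transcripts as lengths, and leaving out each replicate. The comparison of KOs, the zona ratios, and library A alone for likeness, list genes and overlaps were added after seeing the data.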

Additional observations from a re-analysis of the deposited data

How the results depend on the processing

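That none of the 9 genes passed the test held within each line under every alternative run and every left-out replicate, and Astl stayed lower in the Tle6 line in both genotypes throughout. Counts of called genes over all genes moved more. Without a low count filter they were 1625 in the Padi6 line, 1447 in Tle6 and 2078 for the difference. DESeq2 gave 1322, 1732 and 2051. A spread shared by the 4 groups gave 60 and 2061 for the Padi6 and Tle6 lines. A mean of at least 5 CPM gave 567 for the difference and 3674 between KOs. With library A alone for Tle6 het replicate 2 the counts were 120 in the Tle6 line, 382 for the difference and 2260 between hets, and with library A throughout 118, 369 and 2174. Between hets 1 of the 9 genes then passed in either case, beside 12.2% and 11.7% of all genes tested. With library B alone for Tle6 het replicate 2 the counts were 316, 1234 and 4833. Zp2, Oosp1 and Astl then passed between hets, beside 25.2% of all genes tested. Library totals without scaling gave 7 of the 9 between hets and 4 between KOs, beside 31.4% and 33.7% of all genes tested. They moved the median of all genes between hets to -0.34. Leaving out 1 replicate at a time gave 61 to 258 genes in the Padi6 line, 119 to 292 in the Tle6 line, 406 to 1465 for the difference and 2797 to 6756 between hets. It gave 0 to 1 of the 9 for the difference (Oosp2 without Tle6 het replicate 1) and 2 to 5 between hets, where Zp1 passed only without Tle6 het replicate 1 and Oosp1 and Astl passed each time.

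As a replicate block, the replicate number gave 859 genes in the Padi6 line, 57 in the Tle6 line and 400 for the difference, with none of the 9 in any. Same-numbered hets and KOs had correlations of 0.15, 0.05 and 0.09 in Padi6 and 0.05 and 0.11 in Tle6. Other pairs ran from -0.14 to 0.06 in Padi6 and from -0.16 to 0.16 in Tle6. Padi6 het replicate 2 was nearest to KO replicate 3, and Tle6 het replicate 1 to KO replicate 4. The labels do not say whether the numbers pair samples, and that was not tested.

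Log2 fold changes that changed sign were all short of the threshold. In the Tle6 line, library totals gave 0.03 for Zp2 and 0.11 for Astl and Izumo1r, and a mean of at least 5 CPM gave 0.03 for Astl and Izumo1r. Library A, alone or throughout, gave -0.25 for Zp1 and Oosp1 and -0.17 for Zp3, and library B alone gave 0.18 for Zp2 and 0.05 for Izumo1r. For the difference, Astl was 0.01 with upper quartile scaling, 0.19 with library totals, 0.00 without a filter and 0.06 at 5 CPM. Oosp1 was 0.18 with library totals, 0.03 at 5 CPM and 0.26 with library B alone, and Zp3 was -0.01 with the block. Library A alone gave -0.18 for Zp1, -0.35 for Zp2, -0.19 for Zp3 and -0.02 for Izumo1r, and library A throughout gave -0.18, -0.35, -0.20 and -0.06. Between hets, library totals gave -0.11 for Oosp2 and -0.02 for Oosp3, and library A gave 0.04 for Zp2. Between KOs, library totals gave -0.05 for Oosp3.

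With each replicate left out, values in the Padi6 line ran from -0.21 to 0.03 for Zp1, -0.10 to 0.09 for Zp3, -0.13 to 0.01 for Oosp3, -0.14 to 0.01 for Astl and -0.11 to 0.20 for Cd9. In the Tle6 line they ran from -0.07 to 0.17 for Zp1, -0.06 to 0.26 for Zp3, -0.82 to 0.06 for Oosp2, -0.18 to 0.06 for Astl and -0.25 to 0.14 for Izumo1r. For the difference they ran from -0.00 to 0.24 for Zp1, -0.16 to 0.18 for Zp2, -0.09 to 0.20 for Zp3, -0.18 to 0.06 for Oosp1, -0.13 to 0.08 for Astl, -0.02 to 0.27 for Cd9 and -0.08 to 0.29 for Izumo1r. Oosp2 ran from -0.31 to 0.58 between hets, and Oosp3 from -0.02 to 0.09 between KOs. Where 1 Tle6 het was left, it was assumed to vary like the other groups. Longest transcripts as lengths changed the order of levels in Padi6 het, putting Zp2 (2508 TPM) above Oosp2 (2208). The causes of these shifts were not tested.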
